A study of Mus musculus with 2 samples.

Results

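The shared DLX2 regions inside very long protein-coding genes were described here. A shared region was a stretch of at least 1 bp covered by a peak of each of the 2 DLX2 CUT&Tag libraries on chromosomes 1 to 19. A very long gene was a RefSeq protein-coding gene with an annotated extent of 300 kb or more, and a region was counted if it lay wholly inside such a gene and over 2 kb from the end of every protein-coding gene. The rule chose 1243 of 10812 autosomal shared regions. They lay in 391 of 533 very long genes, which is 73.4% of them, and these 533 genes were 2.59% of the 20560 autosomal coding genes. A longer gene offers more room for a region, and among shorter genes the count by the same rule on ends was 851 of 1779 coding genes of 100 to 300 kb (47.8%) and 1566 of 18248 coding genes under 100 kb (8.58%).

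The study profiled DLX2 in cells of the maxillary process, the facial bulge that forms the upper jaw and cheek, from wildtype C57BL/6 mouse embryos at E12.5. In CUT&Tag an antibody directs a transposase to the protein of interest, so that tagged fragments accumulate around it. There was 1 group with 2 libraries, numbered as replicates 1 and 2 by sample record, and no control antibody, input or other genotype entered the values below. Nothing in the labels says whether the 2 libraries came from separate embryos or pools, so the spread between them may be technical. Replicate 1 had 28061 peaks with a median of 6 fragments at the summit and replicate 2 had 62093 peaks with a median of 9, and both lists ended at a q-value of 0.1. The study reports fewer peaks in each replicate, and fewer common to both, than these lists give. The shared regions here are therefore not the study's own set of DLX2 sites. The fragment numbers were recovered from the deposited fold and p-values, and read totals were not analysed here. With about 6 to 11 fragments behind a typical value, the presence or absence of 1 region in 1 gene carried a large counting error.

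DLX2 is a homeodomain transcription factor that patterns the jaw from cranial neural crest cells and also acts in forebrain interneurons. Homeodomain factors of its family bind short AT-rich sites and often occupy enhancers far from promoters. Genes of very large extent consist mostly of intron sequence, and many of them encode adhesion molecules, synaptic proteins, ion channels, kinases and transcription factors. The annotation used here gives gene extents without exons or UTRs, so the regions are described by their place in the gene and not as exonic or intronic.

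Sequence was examined where reference sequence was at hand, which was the 300 bases around RefSeq transcription start sites (250 before and 50 after the start, build GRCm38.p6). Of 1211 regions inside very long genes that could be compared with these windows, 1 overlapped a window. Of 9248 other autosomal shared regions, 47 did (0.508%). The rule on ends took regions within 2 kb of coding gene ends out of the first set alone. The 2 counts are therefore unlike by definition and do not compare the sets. The single case lay inside Gse1, in the start-site window of Gm39264, a gene annotated on the minus strand within Gse1. The first sequence below shows it, with the 43 covered bases in capitals. In replicates 1 and 2 alone, 2 of 3080 and 6 of 6208 peaks overlapped a start-site window of the gene that held them. Only start sites inside the gene could count, 253 sites in 167 genes, since the rule on ends also applied to these peaks. The share of gene sequence in these windows is not given here, so the counts are not read as low or high. An overlap with a window need not include the start itself, and in Gse1 and Pde1a the covered bases lay before it. The case with the highest fold in each replicate, in Pde1a and in Tbc1d5, is printed for contrast, again with the covered bases in capitals. These 3 windows are a selection from the few window overlaps, shown for the bases that the peaks covered, and they were picked after their values were seen.
Gse1, start site of Gm39264 (chr8:120345205-120345504, minus strand, shared region): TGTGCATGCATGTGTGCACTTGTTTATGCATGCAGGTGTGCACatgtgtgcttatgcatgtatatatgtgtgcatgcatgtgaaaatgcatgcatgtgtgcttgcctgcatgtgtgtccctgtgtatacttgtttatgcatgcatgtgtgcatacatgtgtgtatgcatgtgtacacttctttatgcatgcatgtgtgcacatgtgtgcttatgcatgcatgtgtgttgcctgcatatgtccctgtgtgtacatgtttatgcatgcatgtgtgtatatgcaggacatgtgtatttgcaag
Pde1a, internal start site (chr2:80128922-80129221, minus strand, replicate 1 peak): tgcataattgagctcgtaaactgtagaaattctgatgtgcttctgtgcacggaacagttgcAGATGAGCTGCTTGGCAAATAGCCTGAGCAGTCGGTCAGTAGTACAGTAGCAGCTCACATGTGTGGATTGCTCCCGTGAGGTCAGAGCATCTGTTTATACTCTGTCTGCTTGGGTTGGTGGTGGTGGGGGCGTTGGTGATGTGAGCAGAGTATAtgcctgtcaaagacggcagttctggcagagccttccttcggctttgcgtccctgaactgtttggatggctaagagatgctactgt
Tbc1d5, internal start site (chr17:51159329-51159628, minus strand, replicate 2 peak): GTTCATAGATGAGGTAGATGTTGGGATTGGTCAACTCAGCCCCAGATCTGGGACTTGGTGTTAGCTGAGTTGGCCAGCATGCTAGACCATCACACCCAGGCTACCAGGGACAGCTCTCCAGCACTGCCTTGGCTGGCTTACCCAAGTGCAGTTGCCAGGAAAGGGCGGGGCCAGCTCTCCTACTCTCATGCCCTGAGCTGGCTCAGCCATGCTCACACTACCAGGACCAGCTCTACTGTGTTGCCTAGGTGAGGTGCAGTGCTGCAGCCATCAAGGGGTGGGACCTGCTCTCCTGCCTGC

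The Gse1 window was a run of TGCATG repeats. It held 11 copies of TGCATG, counted without overlap on the strand that gave more, which was the highest number in any of 32851 windows, while 11.0% of windows held at least 1 copy on either strand. That motif was chosen after the sequence had been seen. The shared region there had a fold enrichment of 6.19 in replicate 1 and 3.54 in replicate 2, where fold is the pile of fragments at the summit over the local background of the same library. Over both strands, the window held none of 4 motifs that were searched, which were TAATTA and CAATTA (homeodomain sites), TGTGGT (RUNX) and CACGTG (E-box). Of all windows, 5.29% held TAATTA, 8.00% CAATTA, 16.8% TGTGGT and 7.15% CACGTG.

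In Pde1a, which encodes a calmodulin-dependent phosphodiesterase, the peak was in replicate 1 alone and had a fold of 5.77. CAATTA was in that window but not in the covered bases. In Tbc1d5, which encodes a Rab GTPase-activating protein of endosomal transport, a replicate 2 peak with a fold of 6.66 covered all 300 bases of the window, and none of the 4 motifs was in it. Neither start site was in a shared region. Pde1a held 1 shared region elsewhere, and Tbc1d5 held 0 over 448 kb, which allows up to 0.670 per 100 kb by the limit that a count of 0 sets (3 counts, counting error only). Own start sites inside the gene were known for 167 very long genes, 253 sites in all, and 3 shared regions lay within 2 kb of one. They were in Thrb at 249 bp, Dpp10 at 382 bp and Grip1 at 1656 bp, named after their values were seen. No region overlapped an annotated miRNA hairpin.

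Very long genes held slightly fewer shared regions than their size would give. Their interior made up 12.4% of the autosomal sequence and held 11.5% of the autosomal shared regions (95% Wilson interval 10.9 to 12.1%, counting error only). The density was 0.416 regions per 100 kb inside them and 0.455 in all other autosomal sequence, a ratio of 0.916. The peaks of each replicate on its own gave ratios of 0.879 and 0.798, with a mean of 0.838 ± 0.0571 (SD, n = 2). Both replicates were below 1. The ratio rose to 1.01 with a −log10 q of at least 5 in both lists, to 1.02 with a fold of at least 5, and to 1.03 with genes of 200 kb or more. It fell to 0.760 with genes of 500 kb or more. The direction of this difference thus depended on the threshold and on the extent chosen. The density inside was below that outside on 14 of 19 autosomes.

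The deficit was not shared by genes in general. Coding genes of 100 to 300 kb held 0.568 regions per 100 kb, coding genes under 100 kb held 0.558, and sequence within 2 kb of a coding gene end held 0.496. Sequence between coding genes held 0.402, close to the 0.416 inside very long genes. In the single replicates, too, the genes of 100 to 300 kb were denser than both of these classes. Replicate 1 had 1.03 peaks per 100 kb inside very long genes and 0.937 between genes, against 1.53 in genes of 100 to 300 kb. In replicate 2 these values were 2.08, 1.98 and 3.30.

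Among the very long genes themselves, density fell with extent. The 195 genes of 300 to 400 kb held 0.497 regions per 100 kb and the 193 genes of 400 to 600 kb held 0.495. The 90 genes of 600 to 1000 kb held 0.391, and the 55 genes of 1000 kb or more held 0.243. Replicate 1 peaks fell from 1.22 to 0.608 per 100 kb between the shortest and the longest class, and replicate 2 peaks from 2.69 to 1.14. The longest genes also lay in sequence with fewer genes and fewer regions around them. The median number of other coding genes within 500 kb on either side was 7 for the shortest class and 3 for the longest, and the median density in those flanks was 0.402 and 0.201 regions per 100 kb. The part of gene density in the fall with extent was not tested. Over single genes the relation with extent was loose, with a Spearman correlation of −0.118 (n = 533 genes, a description, since neighbouring genes share libraries and base composition).

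**Figure D1:**
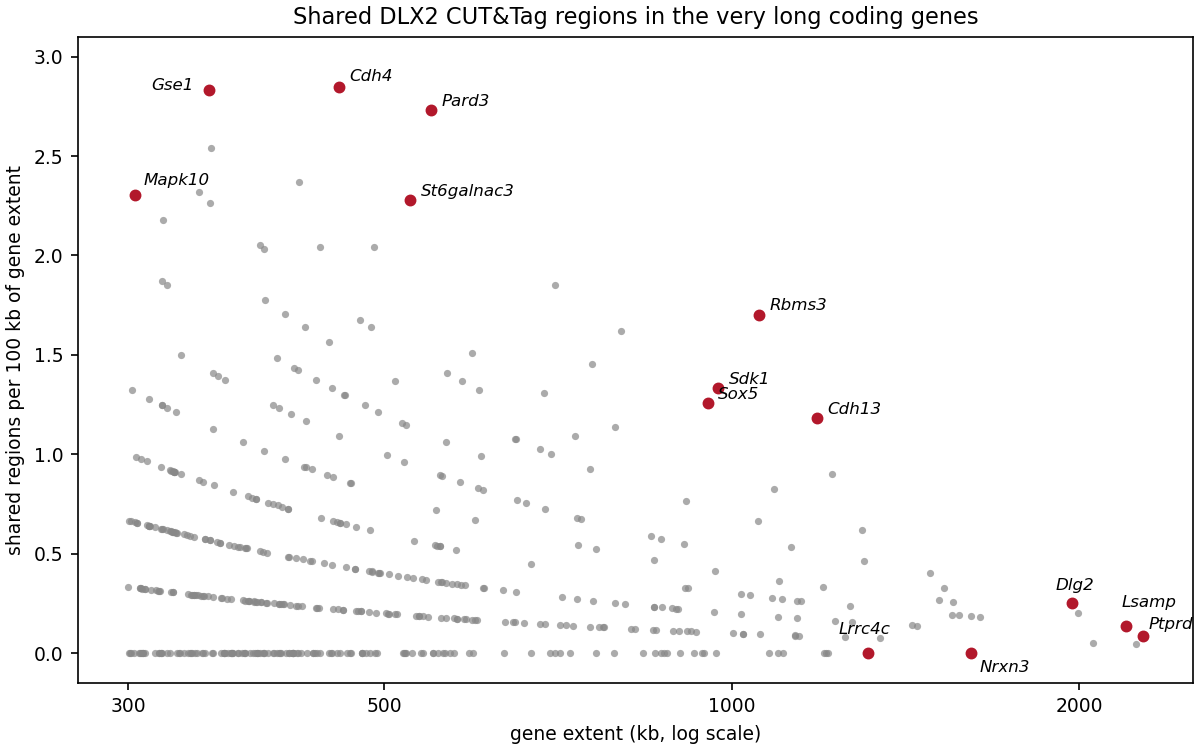
Shared regions per 100 kb of gene extent (vertical axis) against gene extent in kb (horizontal log axis) for the 533 very long coding genes, one point a gene, with named genes in red. The densest genes, Cdh4, Gse1 and Pard3, lie between 2.73 and 2.84 per 100 kb at extents below 600 kb, while Dlg2, Lsamp and Ptprd at the right reach at most 0.253, and the curved bands at the bottom are genes with 1, 2 or 3 regions.

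Regions were spread unevenly over the genes. No region was found in 142 genes, 1 in 120 genes and 2 in 99 genes, while 89 genes with 5 or more held 648 regions, 52.1% of all. The median gene held 0.277 per 100 kb, with quartiles of 0 and 0.655. The replicates ranked the genes similarly. The Spearman correlation of replicate 1 and replicate 2 peaks per 100 kb was 0.852 over the 533 genes, which share the same sequence and mappability in both libraries. Density inside a gene went with density outside it, with a Spearman correlation of 0.523 against the shared regions of the 500 kb on either side and 0.377 against the number of coding genes there.

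The 15 densest genes held 1.87 to 2.84 regions per 100 kb, with extents from 304 to 549 kb. The cadherin gene Cdh4, which encodes R-cadherin, led with 13 regions over 457 kb (2.84 per 100 kb, exact Poisson 95% interval 1.51 to 4.86). Gse1, a coiled-coil protein of a histone deacetylase complex, held 10 regions over 353 kb (2.83, interval 1.36 to 5.21). Pard3, a scaffold of cell polarity, held 15 over 549 kb (2.73, interval 1.53 to 4.51). These intervals overlap throughout, so the order of the leading genes is not set by these counts.

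Several of the next genes act in kinase signalling. Ksr2, a scaffold of the RAF to ERK cascade, held 9 regions, and Prkcb and Prkce, both protein kinase C genes, held 8 and 10. Mapk10, which encodes the kinase JNK3, held 7, and Ulk4, of the unc-51-like kinase family, held 7. Rbfox3, a splicing factor known as NeuN, held 10, St6galnac3, a sialyltransferase, held 12, and Arid1b, a subunit of the BAF chromatin remodelling complex, held 8. Myo3b and Cdh23, both known from the stereocilia of hair cells, held 8 each, Tshz2, a teashirt zinc finger factor, held 9, and the potassium channel gene Kcnh1 held 6. Kcnh1 was the lowest of the 15, with 1.87 per 100 kb and an interval of 0.686 to 4.07.

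All but Tshz2 were denser than the 500 kb on either side of them, 14 of 15 genes, against 222 of all 533. Since these genes were picked for a high density inside, that count describes them and tests nothing. The flanks of the 15 were themselves rich, with a median of 1.31 regions per 100 kb against 0.402 for all very long genes. The gene stood out most from its flanks in Myo3b, with 2.05 inside and 0.502 outside, and in Prkcb, with 2.32 and 0.602. Tshz2 had 2.04 inside and 2.41 outside.

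**Figure D2:**
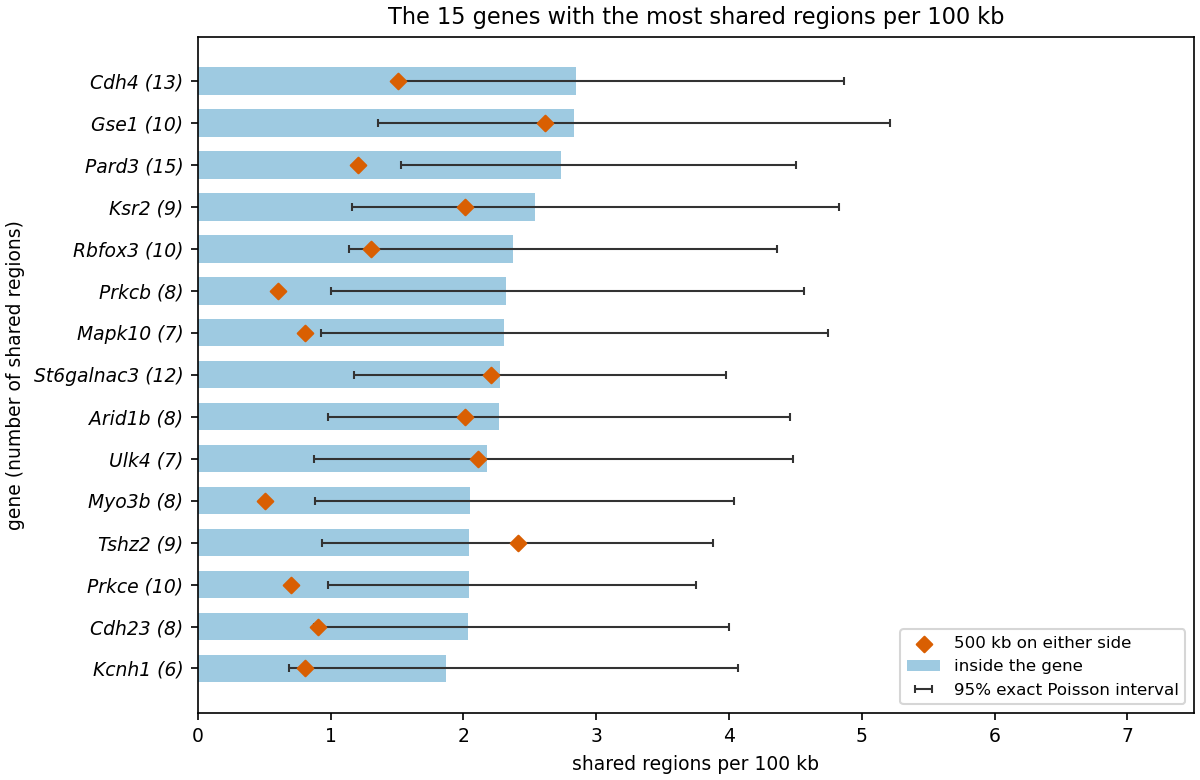
Shared regions per 100 kb inside the 15 densest genes (bars from 0, with the exact Poisson 95% interval as the line) and in the 500 kb on either side of each (diamonds), with the number of regions in parentheses. The bars run from 1.87 to 2.84 and the intervals overlap for all 15 genes, and the diamond lies beyond the bar for Tshz2 alone.

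By number rather than density, Rbms3 led with 18 regions over 1057 kb. Rbms3 encodes an RNA-binding protein, and its regions began 35.8 kb from the lower end of the gene and ended 83.3 kb from the other end. By the lower of both folds, its strongest region had 7.64 and 7.20 in replicates 1 and 2, and the next had 11.1 and 6.82. Cdh13, the gene of T-cadherin, held 14 over 1185 kb, and 12 of these lay in its part with higher coordinates, from 728 kb to 1169 kb. Between 111 kb and 728 kb no shared region was found in Cdh13, although peaks of single replicates were present there. Sdk1 and Camta1 held 13 each. Sox5, a transcription factor of cartilage differentiation, held 12 over 954 kb, and the pair of highest lower folds there were 7.47 and 7.52, and 7.15 and 8.91, in replicates 1 and 2. Dlgap2, a postsynaptic scaffold, held 11.

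**Figure D3:**
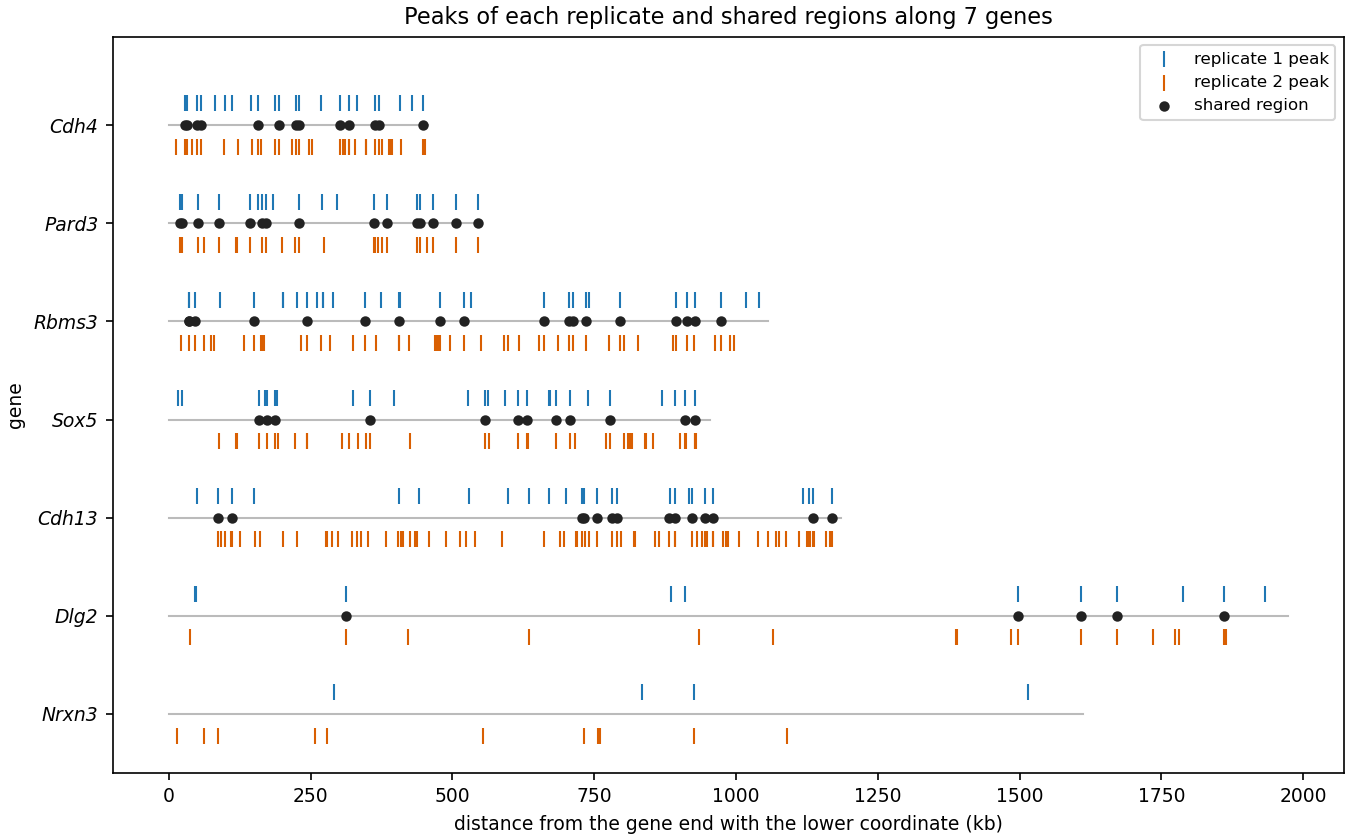
Peaks of replicate 1 (ticks above each line), peaks of replicate 2 (ticks below) and shared regions (dots) along 7 very long genes, by distance in kb from the gene end with the lower coordinate. Cdh4 and Pard3 carry 13 and 15 dots over 457 and 549 kb, Cdh13 has a stretch of more than 600 kb without a dot, Dlg2 has 5 dots over 1973 kb and Nrxn3 has none.

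The 10 longest genes, with extents from 1574 to 2271 kb, held 25 regions together. Their pooled density was 0.130 per 100 kb of extent against 0.409 over all very long genes, and the highest of them, Dlg2, reached 0.253. The replicates alone gave 0.360 and 0.688 peaks per 100 kb there, against 1.01 and 2.04 over all. Ptprd, a receptor tyrosine phosphatase and the longest gene with 2271 kb, held 2 regions. Cntnap2 and Lrp1b, a neurexin family gene and an LDL receptor family gene, held 1 each. Lsamp held 3, Macrod2 held 4, and Csmd1, Fhit and Ctnna3 held 3 each. Nrxn3, which encodes a presynaptic neurexin, held 0 over 1612 kb, and this count of 0 allows up to 0.186 per 100 kb. Nrxn3 did have 4 peaks in replicate 1 and 12 in replicate 2.

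The other long genes without a region were Lrrc4c with 1314 kb, Csmd3 with 1212 kb, Nkain2 with 1208 kb and Ccser1 with 1203 kb. A count of 0 allows up to 0.228 to 0.249 per 100 kb in them. Csmd3 and Nkain2 had 0 peaks in replicate 1 and 4 and 5 in replicate 2, and Lrrc4c and Ccser1 had peaks of both replicates that did not coincide. Of the 142 genes without a shared region, 134 had a peak in at least 1 replicate, and 8 had none in either. Peaks of both replicates were present in 84 of the 142.

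The regions inside very long genes were close to other shared regions in median fold. Their median fold was 5.05 in replicate 1 (quartiles 4.33 and 6.17) and 5.24 in replicate 2 (4.30 and 6.59), against 5.05 and 5.10 for the 9569 other shared regions. The upper quartiles of those others were 6.03 and 6.19. The mean of both medians was 5.14 ± 0.134 (SD, n = 2). The median length was 151 bp for both sets, and the summits of the replicates lay a median of 60 bp apart, against 63 bp elsewhere. The local background was lower than elsewhere, with medians of 0.489 against 0.525 fragments in replicate 1 and 1.29 against 1.41 in replicate 2. In 25.3% of the regions the replicate 1 background was the lowest value in that library, and in 31.6% the replicate 2 background was. At the replicate 1 summit, 26.1% had 5 fragments or fewer. These shares are not given for the other shared regions, so they make no comparison with them.

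With a −log10 q of at least 5 in both replicates, 210 regions remained, 16.9% (14.9 to 19.1%), where 15.5% of all autosomal shared regions did. With a fold of at least 5 in both, 481 remained, 38.7% (36.0 to 41.4%), against 35.1% of all. The interval of the first share includes 15.5%, and that of the second lies slightly above 35.1%. These intervals cover counting error only, and the shares of all include these regions. The folds of the replicates went together only moderately, with a Spearman correlation of 0.442 over the 1243 regions and 0.439 over the others, and 51.7% of the regions had the higher fold in replicate 2.

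**Figure D4:**
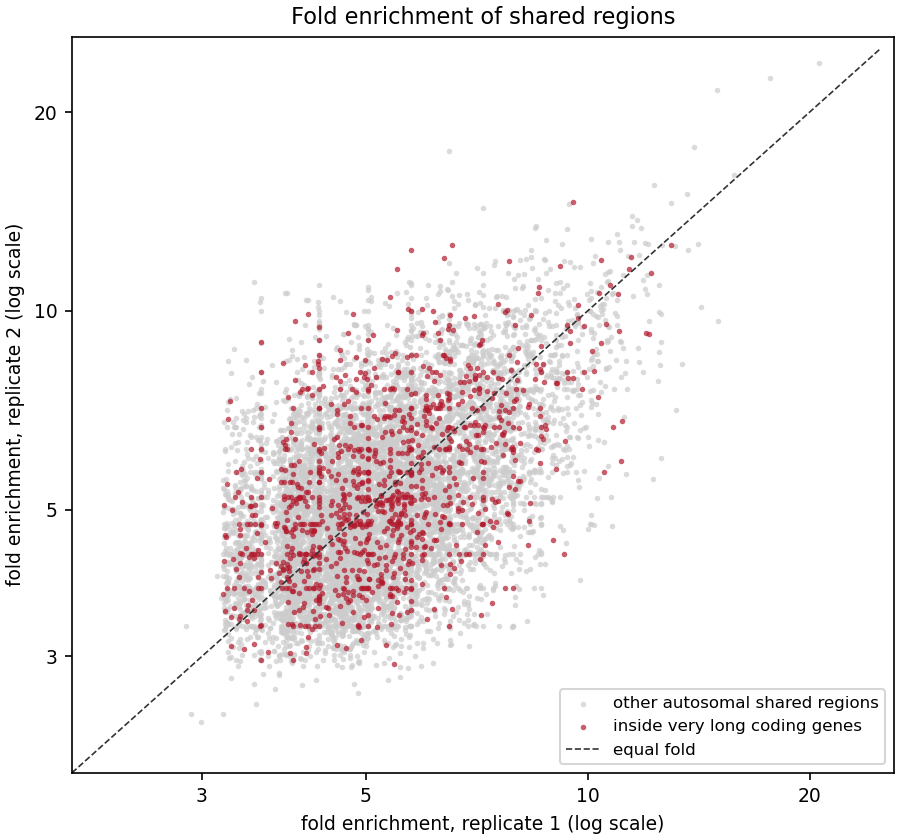
Fold enrichment of each autosomal shared region in replicate 1 (horizontal) and replicate 2 (vertical), both on log axes, with regions inside very long coding genes in red, other regions in grey and a dashed line of equal fold. The red points lie within the grey cloud on both sides of the line, between 3.20 and 13.0 in replicate 1, while the grey points reach 20.6.

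A peak inside a very long gene was met by the other replicate slightly more often than a peak elsewhere. Replicate 1 peaks there were met in 1241 of 3080 cases, 40.3% (Wilson 38.6 to 42.0%). Of all autosomal replicate 1 peaks 38.8% were met, and of those elsewhere 38.7% (38.1 to 39.3%). Replicate 2 peaks were met in 1215 of 6208 cases, 19.6% (18.6 to 20.6%), where 17.3% of all were and 17.0% (16.7 to 17.3%) of those elsewhere. The intervals inside and elsewhere overlap in replicate 1 but not in replicate 2, and they cover counting error only. The share that was met rose with fold, both inside these genes and elsewhere. Of replicate 1 peaks inside these genes, 21.5% were met at a fold below 4, 39.5% from 4 to 6, 78.0% from 6 to 10, and 20 of 20 at 10 or more. Elsewhere these shares were 20.1%, 38.9%, 80.5% and 99.3%. In replicate 2 the shares inside were 7.02%, 20.6%, 69.5% and 23 of 23 over the same bins, and 7.02%, 19.3%, 65.7% and 96.6% elsewhere.

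The strongest regions were ranked by the lower of both folds. The first was in Cadps2, which encodes a protein of dense-core vesicle release, at chr6:23415867-23416089, with folds of 13.0 and 12.6 and with 17 and 26 fragments. It lay 153 kb inside the gene. The second was in Dlg2, a postsynaptic scaffold, at chr7:92147599-92148169, with folds of 11.4 and 12.1 and with 21 and 43 fragments. Cadps2 held just 1 other region, and Dlg2 held 4 others over 1973 kb.

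Mapk10 was both dense and strong. Its region at chr5:103013896-103014423 had folds of 12.2 and 11.4, and its second, at chr5:102915475-102916008, had 10.2 and 8.12 and lay 6.93 kb from the gene end. The lowest fold among its 7 regions was 4.33 in replicate 1 and 6.22 in replicate 2. Cdh4, with 13 regions, had no fold above 7.97 in replicate 1 or 6.23 in replicate 2. With a fold of at least 5 in both replicates, Mapk10 kept 5 of 7 regions and Cdh4 kept 3 of 13, and Mapk10 became the densest gene.

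The next regions by fold were in Ryr2, the cardiac calcium release channel, with 11.4 and 11.6 at chr13:11959631-11960214, and in Nrg1, a ligand of ERBB receptors, with 10.7 and 10.9 at chr8:32709214-32709467. Nav2, a neuron navigator gene, had 11.0 and 10.6 at chr7:49276834-49277209. Cmss1 had 10.4 and 12.0, Kalrn, a guanine nucleotide exchange factor, had 10.4 and 10.6, Jazf1, a zinc finger gene, had 9.71 and 9.76, and Grm7, a metabotropic glutamate receptor gene, had 9.69 and 10.2. In Grm7 this was the only shared region over 922 kb, and it lay 221 kb from the nearest end. A fold above 10 in both replicates was reached by 8 regions in all.

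Runx2 and Rora, which the study discusses, are long enough to enter, while Zeb2, with 134 kb, is not. Runx2, the factor that directs osteoblast differentiation, held 1 region over 319 kb, at chr17:44727876-44728432. Its folds were 7.78 and 10.04, with 11 and 23 fragments, and it lay 86.4 kb from the nearest gene end. Rora, a nuclear receptor gene, held 2 regions over 735 kb. The stronger, at chr9:69099604-69100201, had folds of 11.0 and 9.34 and lay 288 kb from the nearest end. The weaker was 28 bp long and had folds of 4.16 and 3.04. Their densities were 0.314 and 0.272 per 100 kb, against a median of 0.277 over all very long genes, while the stronger region of each had folds above the medians of 5.05 and 5.24 over all regions.

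The regions lay along the whole length of their genes. Distances to gene ends follow in large part from the choice of genes of 300 kb or more. The share of gene sequence at the same distances is not given here. The median distance to the nearest end of the own gene was 128 kb (quartiles 62.5 and 204 kb), and the farthest, in Csmd1, was 758 kb. From any coding gene end, 726 regions (58.4%) lay over 100 kb away and 1198 (96.4%) over 10 kb. The rule on ends removed 12 of 1255 shared regions. Folded so that both ends coincide, the density was 0.440 per 100 kb in the outermost 10% of the gene length, 0.385, 0.416 and 0.443 in the next classes inward, and 0.394 at the centre. A further 63 regions (5.07%) of the 1243 also lay in an annotated lncRNA gene, 16 in another coding gene, and 5 in a pair of overlapping very long genes, counted once in the total and in each gene.

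Neighbouring regions of the same gene were a median of 56.6 kb apart (quartiles 21.8 and 123 kb, n = 857 gaps). Of these gaps 36 (4.20%) were under 1 kb, where the same wide replicate 2 peak can meet separate replicate 1 peaks. Groups of 4 or more regions within 50 kb were found in 12 genes, and merging regions less than 1 kb apart left 1207. Spock1, a proteoglycan gene, had the most, with 5 regions over 45.0 kb close to its upper end, and Cdh4 had 4 over 29.6 kb near its lower end. The Spock1 regions had folds from 3.98 to 7.70 in replicate 1 and from 3.79 to 6.55 in replicate 2.

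By gene list, the pooled density of kinase and RNA-binding protein genes lay above that of all very long genes, and that of axon guidance genes lay below it. The lists were chosen with earlier results of these data known, so their values are a description and test nothing. Of 31 kinases, phosphatases and phosphodiesterases of this length, 28 held a region, which is 90.3% (Wilson 75.1 to 96.7%) against 73.4% of all 533 genes, with 0.607 regions per 100 kb against 0.409. Prkcb, Mapk10 and Prkce led that list. The 44 transcriptional regulators had 34 genes with a region (77.3%, near the 73.4% of all) and 0.536 per 100 kb, led by Tshz2, Camta1 and Maml3, a coactivator of Notch signalling. The 8 RNA-binding protein genes had 7 with a region (interval 52.9 to 97.8%, which includes 73.4%) and 0.667, led by Rbfox3 and Rbms3, while Rbfox1, of the same family as Rbfox3, had 0.327 over 1528 kb. The median gene of the kinase list had 0.544, against 0.277 over all very long genes. The median was 0.313 for the regulators and 0.258 for the RNA-binding proteins, the latter below that of all.

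Of 17 axon guidance genes of this length, 10 held a region, 58.8% with an interval of 36.0 to 78.4% that includes the 73.4% of all very long genes. Their density was 0.222 per 100 kb, with a median of 0.196. Sema5a, a semaphorin gene, led with 4 regions, followed by Ntng1 with 3 and Ephb1 with 2. Glutamate and GABA receptor genes had 0.282, with Grik4 (7 regions), Grin2a (4) and Gabbr2 (2) in front. Of these 18 genes, 13 held a region (72.2%, near the 73.4% of all). The list of neurexins, neuroligins and synaptic organisers, which also holds the neuron navigator gene Nav2, had 0.310, with Shank2, Dlgap2 and Nav2 in front. Of its 25 genes, 21 held a region (84.0%, interval 65.3 to 93.6%, which includes the 73.4% of all). Their median extent was 903 kb, against 451 kb over all very long genes. Density fell with extent, and the part of extent in the 0.310 was not tested. Ion channel genes had 0.347, with 19 of 31 genes holding a region (61.3%, interval 43.8 to 76.3%) and Kcnh1, Itpr2 and Kcnip1 in front. All of these lists lay below the average of 0.409 in shared regions, although ion channel genes had 2.30 replicate 2 peaks per 100 kb against 2.05 over all very long genes.

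The adhesion and matrix lists were mixed. The 11 cadherin superfamily genes had 6 with a region (54.5%, interval 28.01 to 78.73%) and a pooled 0.492 per 100 kb, but a median of 0.170, since Cdh4, Cdh23 and Cdh13 held 35 of the 42 regions. The 18 immunoglobulin superfamily genes had 0.406, with Dscam, Sdk1 and Tmem132d in front, and the 28 matrix and glycan genes had 0.395, with St6galnac3, Spock1 and Hs6st3 in front. The 31 giant genes known from late-replicating sequence had 0.242, and 27 of them held a region (87.1%, interval 71.1 to 94.9%). Esr1 (4 regions) and Nbea (5) were among the densest of that list. Of 30 genes of craniofacial and skeletal development, 20 held a region (66.7%, interval 48.8 to 80.8%, which includes the 73.4% of all), with 0.493 per 100 kb and a median of 0.272, close to the median of all. Rbms3, Kif26b and Sox5 led that list, which holds Runx2 as well. The lists share genes and were not tested against each other.

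**Figure D5:**
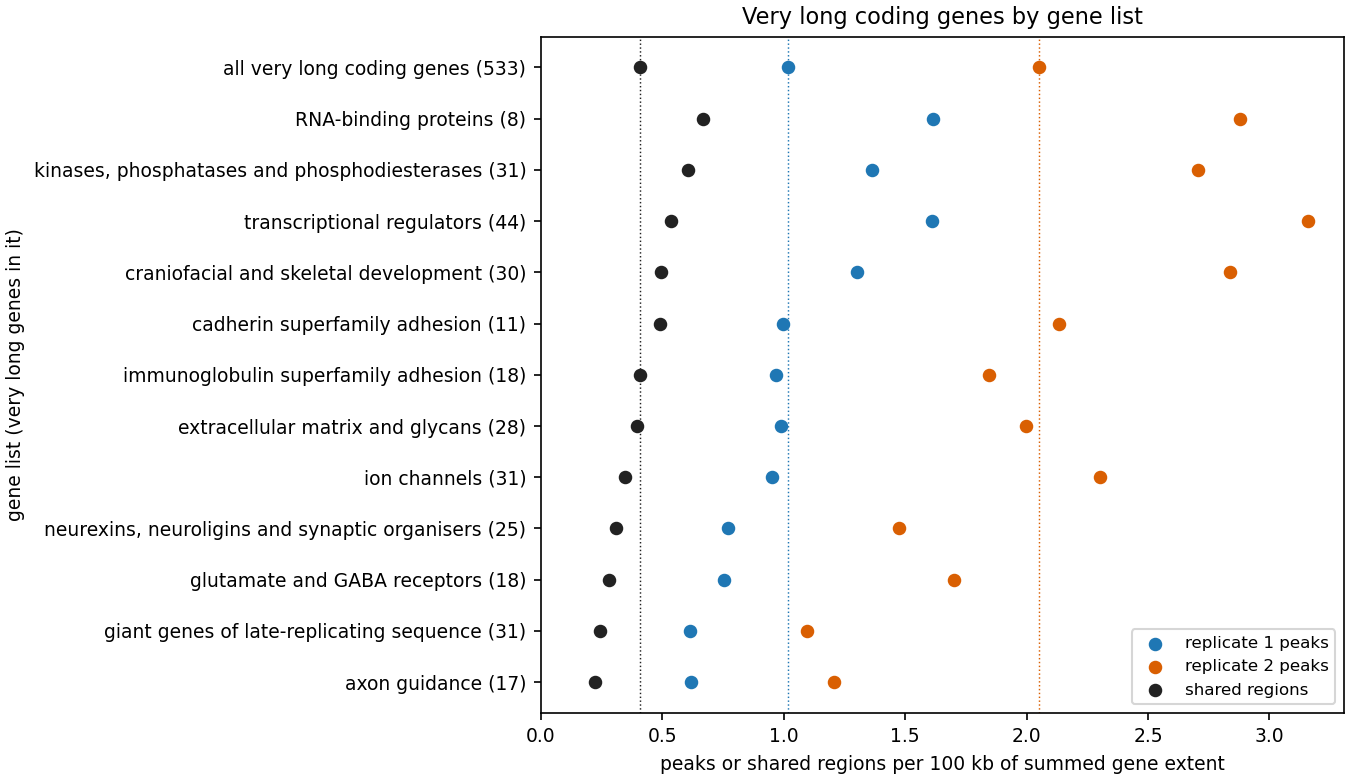
Shared regions (black), replicate 1 peaks (blue) and replicate 2 peaks (orange) per 100 kb of summed gene extent for the very long genes of 12 lists and for all 533, with dotted lines at the values of all. The replicates order the lists much as the shared regions do, with axon guidance and giant late-replicating genes lowest, and transcriptional regulators, RNA-binding proteins and kinases among the highest in each replicate.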

How the data were processed

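DLX2 was profiled by CUT&Tag in 2 libraries of wildtype maxillary process cells at E12.5. The protocol in the labels is one of sonicated nuclei and antibody capture, and that in the study's methods is one of transposase tagging. The submitters' processing notes name Trim Galore 0.4.5, Bowtie 1.1.2, MACS2 2.2.7 and the build mm10, while the study's methods name bowtie2 as the aligner. The settings of the peak caller are not given in the sources used here. The authors called peaks in each library on its own. Each peak has a deposited score, equal to its −log10 q times 10 with decimals dropped. It also has a fold, a ratio of summit pile-up to background that the authors took from the peak caller. The deposited significance columns hold −log10 p and −log10 q from the caller, and the last column holds the offset of the summit from the peak start in bases. No column of the authors' comparisons was present.

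Fragment numbers were inferred from fold, taken as fragments plus 1 over background plus 1, and from −log10 p, taken as a Poisson tail. A whole number within 0.001 was found for 100% of peaks. Shared regions were the overlaps of the lists, and bedtools 2.31.1 gave the same 10812. Genes came from RefSeq on GRCm38.p6. Each autosome was used from position 3000000 to its last gene or peak, and 328 genes listed before that position, 105 of them coding and 0 very long, were left out. Assembly gaps were not removed from the lengths. Strand was known for 405 of 533 very long genes, too few to orient them, so positions were folded from both ends. Motifs were searched in start-site windows alone, since the planned search around summits needs a genome sequence, which was not used here. All 1911 overlapping windows on opposite strands matched as reverse complements.

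Genes were named by rule: the 15 densest with at least 3 regions, the 10 with most regions, the 10 longest, the 5 longest without a region, the 10 regions highest in the lower fold, the 3 densest genes of each list with at least 2 regions, and Rora, Runx2 and Zeb2. Genes outside the rule are said to be so where they are named, with exceptions. Gm39264, Pde1a and Tbc1d5 were brought in by the printed sequences. Dmd, Il1rapl1, Tenm1 and Col4a6 were named as the very long X chromosome genes that held a shared region. Some genes that the rule names are not reported here. Members and lists were chosen with earlier results of these data known. With 1 group and no control there was no comparison between conditions and no p-value was computed. Wilson and Poisson intervals are at 95% and cover counting error only. Python 3.11.15, pandas 2.3.3, numpy 2.4.6 and scipy 1.17.1 were used, and the overlap and fragment steps were tested on simulated data.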

Additional observations from a re-analysis of the deposited data

How the results depend on the processing

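The values were recomputed under stricter peaks, a stricter overlap, merging of near regions, other gene extents, other rules on gene ends and single replicates, and 44 of 78 recomputed values stayed unchanged within their spread. The 1243 regions in 391 genes became 210 in 144 with a −log10 q of at least 5, 481 in 253 with a fold of at least 5, 736 with 50% of both peaks shared, and 622 in 174 genes of 500 kb or more. Genes of 200 kb or more with a region numbered 643. The density ratio of inside to outside reversed to 1.011, 1.023 and 1.026 with that q, that fold and 200 kb, and fell to 0.7599 at 500 kb. The share of regions in very long genes became 12.54%, 12.67%, 16.78% and 5.753% under the same 4 choices. The median fold in replicate 1 became 7.422, 6.313, 5.541 and 5.207 with that q, that fold, 50% overlap and 500 kb, and in replicate 2 it became 7.325 and 6.619 with that q and fold. The share of peaks met became 58.17% and 23.90% in replicate 1 with that q and 50% overlap, and 27.21%, 33.40%, 11.86% and 20.87% in replicate 2 with that q, that fold, 50% overlap and 500 kb. Using 1 replicate alone, the number of peaks in place of regions was 3080 to 6208, the ratio 0.7978 to 0.8785, the share 10.17 to 11.08%, and the median fold 4.367 in replicate 1 and 4.284 in replicate 2, and no share met could be computed. Fold and q thresholds and longer extents change these values by their construction; for the reversed ratios the cause was not tested. Merging gave no fold or share met. Of the 15 densest genes 4 remained among the 15 densest with that q, 7 with that fold, 12 with 50% overlap, 13 at over 10 kb from gene ends, 14 with merging, 5 and 8 without replicates 1 and 2, 2 at 500 kb or more, and 3 at 200 kb or more, where Slc35f3, named after its value was seen, led with 16 regions and 6.21 per 100 kb. Of 686 recomputed counts for 65 named genes, 250 moved. No paired analysis was possible because there was 1 group and no comparison between groups. Depth limits the values of single genes, with medians of 7 and 11 fragments per region.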

Other observations

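On the X chromosome, which the autosomal counts leave out, 24 coding genes had an extent of 300 kb or more. They held 5 shared regions in 4 genes. The whole X chromosome held 69 shared regions, against 10812 on the autosomes, so a low count was not particular to its very long genes. Dmd, the dystrophin gene and at 2390 kb the longest of them, held 2, with 3 peaks in replicate 1 and 7 in replicate 2. Il1rapl1, Tenm1 and Col4a6 held 1 each. The density was 0.0332 regions per 100 kb of extent, 0.0812 times that of the autosomal very long genes. The peaks of the single replicates gave 0.0730 and 0.259 per 100 kb, which is 0.0721 and 0.127 times the autosomal values. The sex of the embryos behind the libraries was not analysed here, and the part of copy number in these values was not tested.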
